A study of Mus musculus with 18 samples.

Results

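The cytosolic ribosomal protein genes were examined in 18 libraries of mouse ovary RNA. Members were taken as all gene symbols that begin with Rpl or Rps, go on with the number of a subunit protein and at most a closing letter a, x or l, together with Rplp0, Rplp1, Rplp2 and Rpsa. They had to reach a value of at least 1 FPKM (fragments on a gene, scaled to its length and to all fragments on genes) in at least 3 of the 18 libraries. Of 30172 symbols 82 matched the pattern, and 81 of these also met the level rule, as did 14607 symbols in all. The 81 members comprised 46 genes of the large subunit, 30 genes of the small subunit, the 3 paralogues Rpl10l, Rpl39l and Rps27l, and 2 symbols that GENCODE annotates as processed pseudogenes, Rpl6l and Rpl32l. Rpl32l was the member nearest to the limit, with 0.707 to 4.76 FPKM, and Rpl3l, a paralogue of Rpl3 known from muscle, stayed below it with at most 0.111 FPKM. The pattern leaves out Rps3a1 and Fau, which also encode ribosomal proteins.

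The ovaries came from wild-type C57BL/6J female pups of the F1 generation at postnatal day 3, 7 and 21 (Pd3, Pd7 and Pd21). Their dams had eaten either a high-methionine diet with 3% methionine, which raises homocysteine in the blood (hyperhomocysteinemia, HHcy), or normal chow, from before mating until the end of lactation. The pups, called F1-HHcy and F1-Control, were not treated themselves. Each diet and day had 3 libraries of poly-A RNA from whole ovary, with Pd3 and Pd7 labelled batch 1 and Pd21 batch 2, so diets were compared within a batch and Pd21 against another day could not be told apart from batch. The pup and litter behind each library are not given in the labels, and p-values therefore measure the spread between libraries, part of which may be technical. Markers of oocytes, granulosa cells and stroma were present in all 18 libraries.

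Ribosomes are built from ribosomal RNA and a nearly fixed set of proteins, each present once per subunit in most cases, and a growing cell makes these proteins in matched amounts. The messenger RNAs of vertebrate ribosomal proteins typically begin with a cytosine followed by a run of pyrimidines, the terminal oligopyrimidine tract, through which mTORC1 signalling adjusts their translation. In the ovary, primordial follicles lie dormant, and growth of the oocyte after activation goes with increased protein synthesis. Phosphorylation of the small subunit protein Rps6 is a common readout of mTORC1 activity, and it is a change of the protein, which RNA levels do not record.

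The sequences around the transcription start were searched for pyrimidine tracts. A promoter sequence in RefSeq (GRCm38.p6) was matched to 60 of the 81 members. A tract of at least 8 bases, C followed by only C or T, that began between 20 bases before and 50 bases after the start was found in 47 of them (78.3%), against 22.7% of all 27025 genes with a promoter sequence. Counted from a C at the start base itself, a tract of at least 5 bases was found in 23.3% of the members. In all genes it was 3.01%. The letters CCGGAAG, the core of sites bound by ETS factors, occurred on either strand of the 300 bases in 41.7% of the members, against 9.93% of all genes and 18.4% of the other genes at the level rule. Windows of 30 bases, from 10 before the annotated start, are shown for members that return in the results, with the tract in capitals. Rps6 (chr4:86857348-86857377, minus strand), Rplp2 (chr7:141447641-141447670, plus), Rps18 (chr17:33955646-33955675, minus), Rpl35a (chr16:33056472-33056501, plus) and Rps27 (chr3:90213629-90213658, minus) have long tracts, while the paralogues Rpl10l (chr12:66284382-66284411, minus) and Rpl39l (chr16:10170218-10170247, plus) have shorter ones. Short tracts were not particular to these paralogues. The subunit genes Rps3, Rps4x and Rplp0, which also return below and are not shown, had tracts of 5 bases.
Rps6: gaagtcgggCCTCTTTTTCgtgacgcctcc
Rplp2: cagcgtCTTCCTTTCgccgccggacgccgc
Rps18: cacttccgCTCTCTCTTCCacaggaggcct
Rpl35a: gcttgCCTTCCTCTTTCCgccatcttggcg
Rps27: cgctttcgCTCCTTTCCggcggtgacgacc
Rpl10l: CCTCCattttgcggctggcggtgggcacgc
Rpl39l: aggCCTTTCCggatttccggtggtcgccat

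Depth ranged from 33630547 to 39399215 fragments on genes, of which Rps6, for example, took 30498 to 75343. One library stood apart. F1-HHcy replicate 3 at Pd3 held 58 genes more than 1 log2 unit above every other library and 15 more than 1 below, while the other 17 libraries had 0 to 34 and 0 to 6 such genes. The immediate-early gene Fos reached 818 FPKM there against 0.902 to 93.5 in the others, and the chemokine Cxcl1 258 against 0.348 to 8.71. These genes were picked after their values were seen. The calls, the counts and the median of the diet comparison at Pd3 are given with and without this library.

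The 76 subunit genes were among the most abundant RNAs of the ovary. The median of their mean levels was 1111 FPKM, from 157 for Rps15a to 3388 for Rpl41, and 66 of them were among the 100 symbols with the highest means. In all 18 libraries 73 of the 76 stayed above 100 FPKM. After Rpl41, the smallest of the ribosomal proteins, the highest means belonged to the stalk protein gene Rplp1 (3385), Rpl23a (2613), Rpl32 (2501) and Rps26 (2481). The lowest levels of all members were those of the pseudogene Rpl32l (2.11), the paralogues Rpl10l (11.6), Rpl39l (19.9) and Rps27l (36.8), and the pseudogene Rpl6l (117).

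The 81 members held between 16.6% and 26.8% of the summed FPKM of a library, with a median of 21.1%. At Pd3 the share was 19.5%, 18.1% and 16.6% in the F1-Control libraries and 23.2%, 21.1% and 19.1% in the F1-HHcy libraries. The means were 18.1% ± 1.42 and 21.2% ± 2.05 (SD, n = 3), and the groups overlapped. Without F1-HHcy replicate 3, the library that stood apart, the F1-HHcy mean was 22.2% ± 1.54 (n = 2), and the libraries no longer overlapped. At Pd7 the share was 20.9%, 26.8% and 22.3% in F1-Control and 24.7%, 26.4% and 21.1% in F1-HHcy, with means of 23.3% ± 3.05 and 24.1% ± 2.71 (n = 3). At Pd21 it was 20.1%, 24.5% and 18.8% in F1-Control and 18.02%, 23.8% and 26.3% in F1-HHcy, with means of 21.1% ± 2.99 and 22.7% ± 4.24 (n = 3). The F1-HHcy mean of this share was the higher one on each day. The difference exceeded either SD at Pd3, although the libraries overlapped, and was smaller than both at Pd7 and Pd21. Of the fragments themselves, with no correction for gene length, the members took 5.37% to 11.5%. At Pd7 this was 7.34%, 11.5% and 8.01% in F1-Control and 8.67%, 9.35% and 6.98% in F1-HHcy. By this measure the F1-HHcy mean was not the higher one at Pd7.

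**Figure D1:**
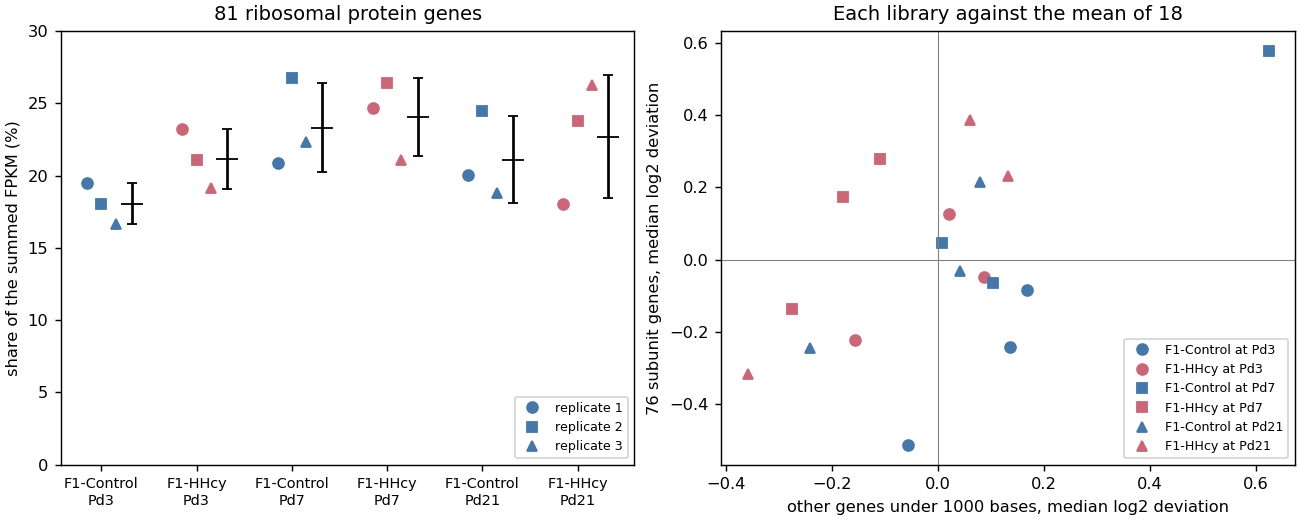
Left, share of the summed FPKM held by the 81 ribosomal protein genes (%) for each library (symbols are replicates, blue F1-Control, red F1-HHcy), with the mean and SD of each group in black. Right, the median log2 deviation of the 76 subunit genes from their mean over 18 libraries against that of other genes under 1000 bases, where F1-Control replicate 2 at Pd7 lies at the upper right with 0.58 and 0.62.

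The subunit genes moved together from library to library. After subtraction of the group means, a subunit gene had a median correlation of 0.94 with the median of the other subunit genes over the 18 libraries, and 66 of the 76 exceeded 0.8. Without F1-HHcy replicate 3 at Pd3 the median was 0.95 and 74 exceeded 0.8, and Rpl28 (0.77) and Rplp2 (0.78) did not. The medians of the small and the large subunit genes had a correlation of 0.996 (n = 18). These are descriptions over points that share a library and its scaling. The spread between libraries of a group was larger for them than for genes in general, with a median SD of 0.29 log2 units against 0.22 over all genes at the level rule.

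Other short RNAs moved with the subunit genes. The within-group deviations of the subunit genes had a correlation of 0.89 with those of 236 other genes under 1000 bases, of 0.85 with 77 mitochondrial ribosomal protein genes and of -0.56 with 245 genes of at least 3000 bases (n = 18 each). In F1-Control replicate 2 at Pd7, 58 of the 81 members had their highest value, and the median subunit gene lay 0.58 log2 units above its mean. The other short genes lay 0.62 above and the long genes 0.11 below in that library. F1-Control replicate 3 at Pd3 was the opposite case, with the lowest value for 47 members and a median of -0.51, and there the other short genes lay at -0.06. The part of transcript length or RNA quality in these values was not tested.

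**Figure D2:**
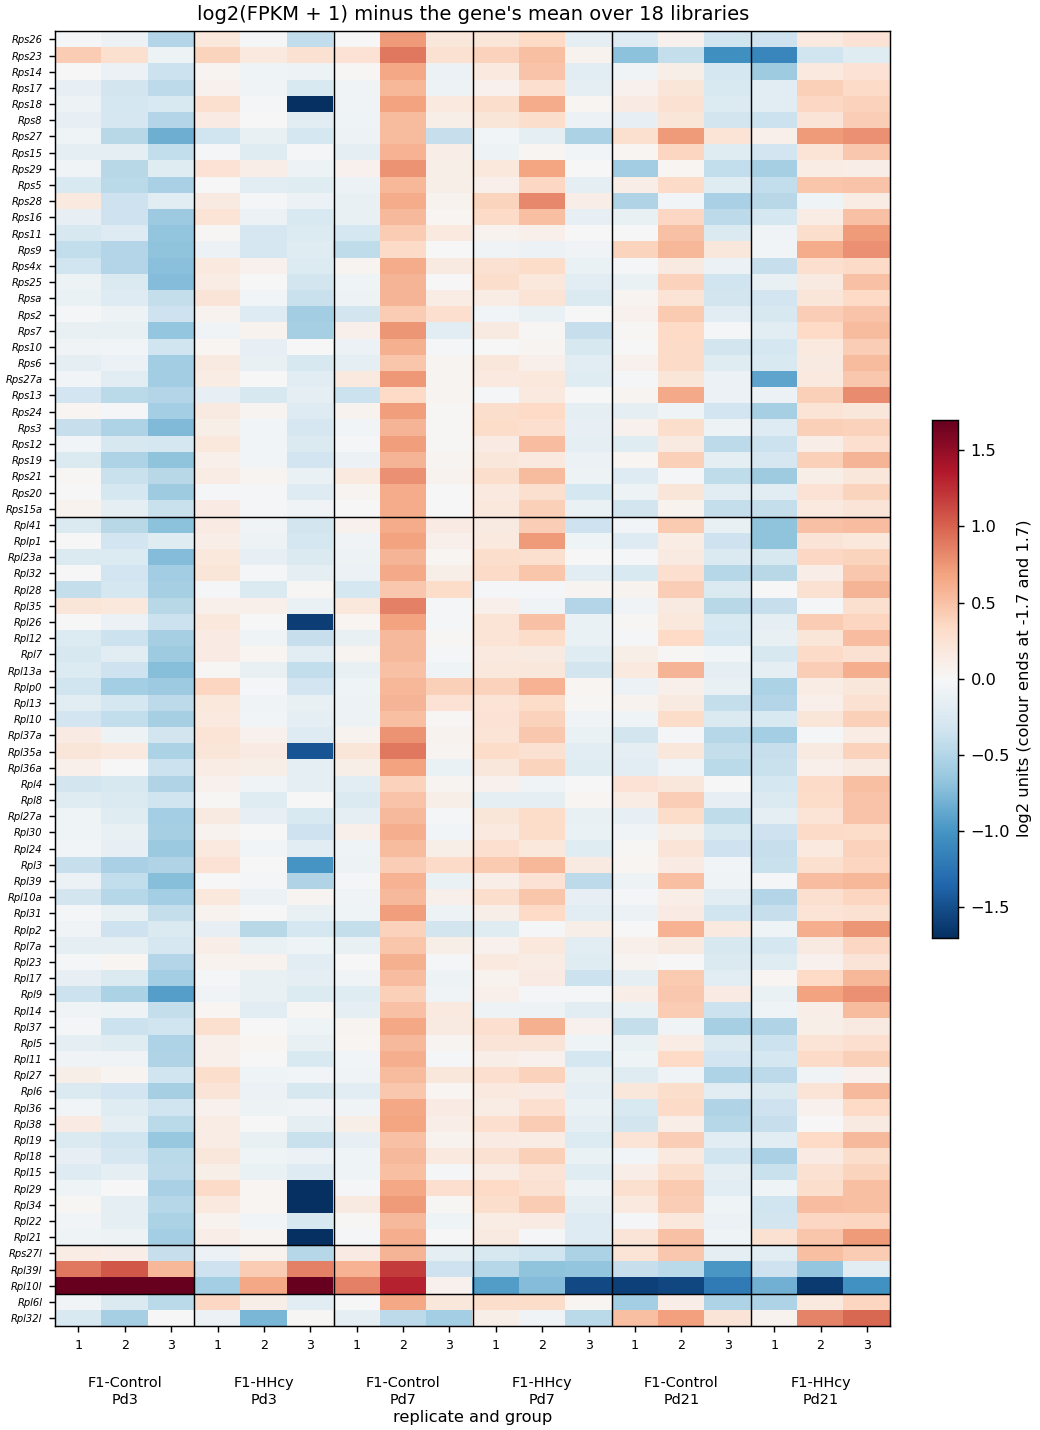
Level of 80 of the 81 members (rows: small subunit, large subunit, paralogues, pseudogenes, each ordered by mean level) in the 18 libraries (columns), as log2(FPKM + 1) minus the gene's mean, in log2 units. Whole columns are red or blue together, as in F1-Control replicate 2 at Pd7 (58 members at their highest), single dark blue cells mark the members that were low in F1-HHcy replicate 3 at Pd3, and Rpl10l and Rpl39l have a pattern of their own.

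Some members departed from the rest in 1 library. In F1-HHcy replicate 3 at Pd3, Rpl29 was 57.2 FPKM against 211 to 487 in the other 17 libraries, Rps18 426 against 1516 to 2997, Rpl34 57.5 against 197 to 460, Rpl21 37.8 against 102 to 251, and Rpl26 702 against 1650 to 3415. Each of these 5 lay more than 1 log2 unit below the lowest other library, and no other library held such a member. Rpl35a, at 450 against 864 to 2322, lay 0.94 log2 units below. The median subunit gene was -0.22 from its mean there. Rpl3 (511 against 702 to 1515) and Rps2 (781 against 923 to 1652) were also at their lowest.

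Many ribosomal protein genes have near-identical processed copies in the genome, and 73 of the 81 members had at least 1 copy in GENCODE with at least 95% identity over at least 80% of the coding sequence, with a median of 5 and up to 57 copies per member. For such genes the assignment of fragments to the gene or a copy is uncertain. Rpl34 and Rpl34-ps1 are such a pair. The coding sequence of Rpl34 (353 bases, 5 exons, chromosome 3) and the single exon of Rpl34-ps1 (chr6:71124610-71124963, plus strand) differ at 2 positions, T132C and C318G, with positions counted from 1 at the first coding base of Rpl34 and its base given first. The windows of 31 bases around both sites, within the coding sequence on GRCm38, have the differing base in capitals. They lie at chr3:130729069-130729099 (minus) and chr6:71124726-71124756 (plus) for the first site, and at chr3:130726896-130726926 (minus) and chr6:71124912-71124942 (plus) for the second.
Rpl34, first site: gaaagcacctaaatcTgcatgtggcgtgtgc
Rpl34-ps1, first site: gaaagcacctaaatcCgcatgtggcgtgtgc
Rpl34, second site: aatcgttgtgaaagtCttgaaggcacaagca
Rpl34-ps1, second site: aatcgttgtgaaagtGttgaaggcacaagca

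In 17 libraries 8467 to 19889 fragments were assigned to Rpl34 and 347 to 1019 to Rpl34-ps1, which made the copy 3.66% to 5.45% of the pair. In F1-HHcy replicate 3 at Pd3, Rpl34 had 2424 fragments and Rpl34-ps1 had 6784, 73.7% of the pair. The sum of both was 267 per 1000000 fragments there, inside the 251 to 586 of the other libraries, while the share assigned to each locus was outside theirs. The cause was not tested. The other low members differed from this in the copies that could be counted. Copies of Rpl21 made 47.5% of its sum against 14.7% to 21.0%, but with 63.5 per 1000000 fragments they stayed within the others' 47.5 to 85.1, and the sum of 134 lay below their 239 to 552. For Rpl29 the copies made 0.260% of the sum against 0.0321% to 0.153%, with 6 fragments against 4 to 26. For Rpl35a they made 1.47% against 0.0298% to 0.286%, with 138 fragments against 9 to 92. Rpl26 and Rps18 had no such copy with a symbol in the files. The counted sums of Rpl29, Rpl35a, Rpl26 and Rps18 were out of range too. Over all members only 58 of 558 copies had a symbol, with 8 of 57 for Rpl21, 4 of 27 for Rpl29 and 2 of 14 for Rpl35a. Fragments on the other copies could not be counted. Rps18-ps4, a pseudogene symbol that was not among the copies found, was 4.33 FPKM in this library and 0.208 at most in the others.

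**Figure D3:**
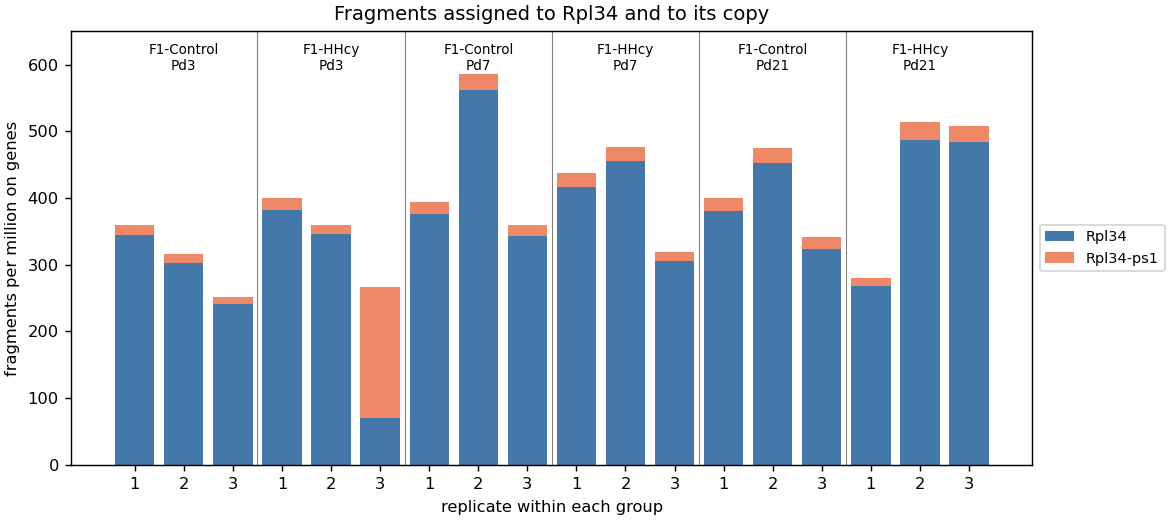
Fragments, per 1000000 on genes, assigned to Rpl34 (blue) and Rpl34-ps1 (orange), stacked, in each of the 18 libraries (x axis: replicate within each group). The copy makes 73.7% of the bar in F1-HHcy replicate 3 at Pd3 and 3.66% to 5.45% in the other 17, while the height of that bar, 267, stays within their range.

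The maternal diet was compared on each day to ask whether offspring ovaries differ in the RNA of the protein synthesis machinery. Differences are log2 fold changes of FPKM + 1, F1-HHcy against F1-Control, and a member was called with an adjusted p under 0.05 from limma over all genes tested that day. Of the 81 members, 0 were called at Pd3, 1 was lower at Pd7 and 0 were called at Pd21. The 76 subunit genes thus had no call in either direction on any day. In all genes tested, 1.64% were higher and 1.43% lower at Pd3, 5.88% higher and 5.98% lower at Pd7, and 0.0% higher and 2.23% lower at Pd21. With limma-voom on the recovered fragments the calls were again 0, 1 lower and 0. In RNA of whole ovary, fewer cells of a type and less RNA per cell cannot be told apart. A log2 change of 0.5 would rarely have been called in these libraries for a gene drawn at random. The simulated test found 4 of 100 such genes at Pd3 and 0 of 100 at Pd7 and at Pd21. A change of 1 was found for 59, 37 and 23 of 100. The altered genes were drawn from all genes tested, with noise independent between genes, so these rates are not those of the members.

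At Pd3 the members leaned to higher values in F1-HHcy without passing the test. The median log2 fold change was 0.20, against -0.03 over all genes, and 69 of 81 members were positive, against 45.5% of all genes. An unadjusted p under 0.05 was reached by 8 members (9.78% of all genes were higher and 12.6% lower at that level), all of them higher, among them Rpl10a, Rps4x, Rps3, Rpl9, Rpl10, Rplp0 and Rps9. Rpl10a, a protein of the large subunit near the exit of transfer RNA, had the smallest adjusted p of the members, 0.0969. It was 779, 690 and 646 FPKM in F1-Control and 1102, 905 and 1002 in F1-HHcy (log2 fold change 0.51, SE 0.14). Rps4x, the X-linked gene of a small subunit protein, was 1006, 899 and 776 in F1-Control and 1431, 1332 and 1081 in F1-HHcy (0.52, SE 0.17, adjusted p = 0.134 from limma). The groups did not overlap for either gene, nor for 16 further members, all 18 of them higher in F1-HHcy, while 11.8% of all genes were higher without overlap.

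Markers of several cell types differed between the same libraries. The sum of 6 erythroid markers was 1592 to 5288 FPKM in F1-Control and 284 to 438 in F1-HHcy at Pd3, and hemoglobin RNA made 0.961% to 2.47% and 0.190% to 0.258% of the summed FPKM. The sum of 6 markers of theca and stroma was 386 to 482 in F1-Control and 563 to 1219 in F1-HHcy, that of 6 granulosa markers 204 to 217 and 266 to 464, and that of 3 endothelial markers 23.4 to 31.2 and 44.3 to 53.1, with no marker of these lists at 0 in a group. Single markers did not all follow these sums. Of the granulosa list, Amh (log2 fold change 3.47), Inha (1.78) and Foxl2 (0.10) were higher in F1-HHcy and Fst (-0.08) and Amhr2 (-0.24) lower. Of theca and stroma, Pdgfra (1.83), Hsd3b1 (1.06), Dcn (0.83) and Col1a1 (0.63) were higher and Star (-0.07) lower. Cyp19a1 and Cyp17a1 were too low to be tested at Pd3. The part of these cell types in the Pd3 values was not tested. When mitochondrially encoded and hemoglobin RNAs were left out of the scaling, the median of the 81 members was 0.15 and that of all genes -0.08, against 0.20 and -0.03 with them.

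Without F1-HHcy replicate 3, the library that stood apart, the Pd3 comparison called 6 members higher and 2 lower, and 9.34% and 12.3% of all genes. Rpl3, Rpl6l, Rplp0, Rps3 and Rps4x were among the 6, which had log2 fold changes of 0.48 to 0.68, and the 2 were Rpl10l (-2.08, SE 0.31, adjusted p = 0.00431 from limma) and Rpl39l (-0.80, adjusted p = 0.0425). For Rps4x the fold change was then 0.63 (SE 0.16, adjusted p = 0.0301). The shares of members called were below those of all genes in both directions. An unadjusted p under 0.05 was then reached by 18 members that were higher and 2 that were lower (15.5% and 21.0% of all genes), and 52 were higher and 2 lower without overlap (23.5% and 30.8%), with 2 libraries against 3. The median of the 81 was 0.30 without this library, with 77 positive, and from 0.10 to 0.29 when each of the other 5 was left out. The members that were low in it changed sign, such as Rpl29 from -0.48 to 0.38, Rps18 from -0.41 to 0.34 and Rpl34 from -0.47 to 0.31. The lowest median, 0.10 with 60 positive, came without F1-Control replicate 3, the lowest library for 47 members. Then 3 members were higher at an unadjusted p under 0.05 in limma, beside 10.3% of all genes. Without overlap 18 were higher and 3 lower, beside 20.5% and 21.1% of all genes.

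At Pd7 the median log2 fold change was -0.09, against 0.00 over all genes, with 15 of 81 members positive. It was 0.11 without F1-Control replicate 2, in which most members peaked, and 0.03 without F1-HHcy replicate 3. The sign of the median at Pd7 therefore rested on single libraries. Among the subunit genes the log2 fold changes ran from -0.49 to 0.25, and 0 of the 76 had an unadjusted p under 0.05, although 15.6% of all genes were higher and 15.9% lower at that level. The 3 members that reached it were the paralogues Rpl10l, Rpl39l and Rps27l, all lower, which were also the 3 members whose groups did not overlap (19.5% of all genes were lower without overlap). At Pd7 the sum of 6 markers of theca and stroma was 957 to 997 FPKM in F1-Control and 1425 to 1730 in F1-HHcy. Among them Dcn was lower in F1-HHcy (log2 fold change -0.88). Cyp17a1 (5.34), Hsd3b1 (1.71), Star (0.84), Pdgfra (0.34) and Col1a1 (0.30) were higher. The sum of 6 erythroid markers, of which Slc4a1 was near 0 in F1-HHcy, was 293 to 2521 and 85.7 to 154. That of 5 immune markers was 73.6 to 107 and 40.6 to 59.5. The part of these cell types in the Pd7 values was not tested.

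At Pd21 the median was 0.12, against -0.01 over all genes, and 79 of 81 members were positive, but no member had an unadjusted p under 0.05 in limma (0.285% of all genes were higher and 6.56% lower), and no member's groups were without overlap (1.92% higher and 8.61% lower). The median ranged from -0.00 when F1-HHcy replicate 3 was left out to 0.34 when replicate 1 of that diet was. The 4 summed markers of multiciliated cells, Foxj1, Tekt1, Dnah5 and Ccdc39, were 34.6 to 134 FPKM in the F1-Control libraries of this day and 1.76 to 2.69 in F1-HHcy, and their part in the Pd21 values was not tested.

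**Figure D4:**
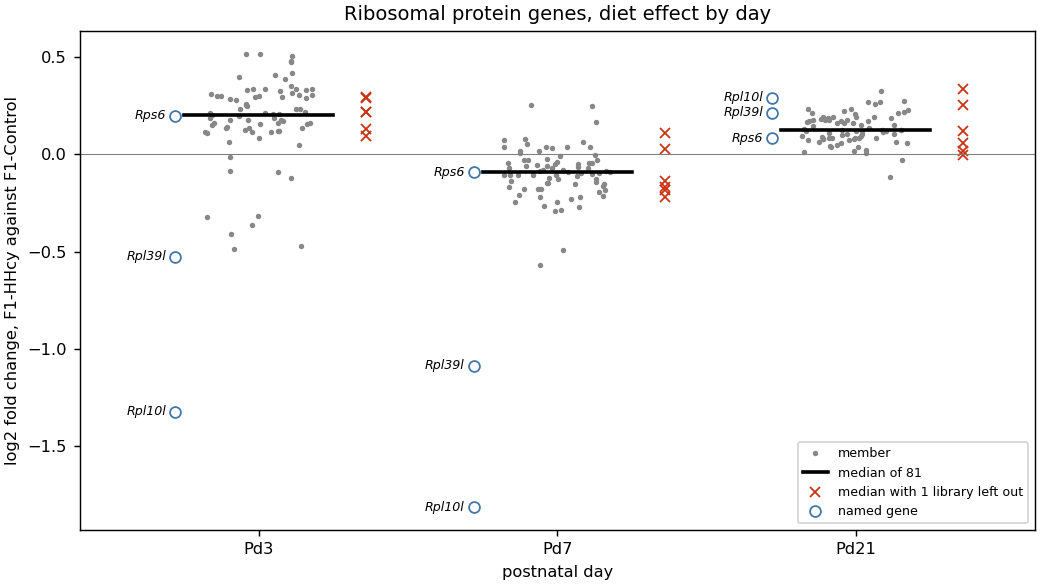
Log2 fold change of each of the 81 members between F1-HHcy and F1-Control (y axis) at Pd3, Pd7 and Pd21, with the median (bar), the medians with 1 library left out (crosses) and Rps6, Rpl10l and Rpl39l circled. The medians are 0.20, -0.09 and 0.12, and the crosses span 0.10 to 0.30, -0.22 to 0.11 and -0.00 to 0.34.

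Rps6 encodes the substrate whose phosphorylation the study followed on the protein. At Pd3 its RNA was 849, 879 and 623 FPKM in F1-Control and 1044, 866 and 777 in F1-HHcy. At Pd7 it was 849, 1299 and 974 against 1075, 1001 and 827, and at Pd21 986, 1182 and 814 against 790, 1042 and 1372. The groups overlapped on each day. The log2 fold changes were 0.20 (SE 0.19), -0.09 (SE 0.24) and 0.08 (SE 0.27), with adjusted p-values from limma of 0.569, 0.822 and 1.00, and a difference of the size of the standard errors could not have been seen. Without F1-HHcy replicate 3 the value at Pd3 was 0.30 (SE 0.19, adjusted p = 0.300 from limma).

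The stalk carries Rplp0, Rplp1 and Rplp2, through which the ribosome engages translation factors, and their log2 fold changes were 0.52 (SE 0.20), 0.08 (SE 0.19) and -0.09 (SE 0.15) at Pd3, 0.04 (SE 0.28), 0.04 (SE 0.36) and 0.06 (SE 0.26) at Pd7, and -0.03 (SE 0.28), 0.06 (SE 0.35) and 0.18 (SE 0.30) at Pd21. Rpl5 and Rpl11, of the particle that docks 5S ribosomal RNA, which when free also bind the p53 regulator Mdm2, were at 0.30 (SE 0.14) and 0.15 (SE 0.17) at Pd3, -0.09 (SE 0.23) and -0.22 (SE 0.24) at Pd7, and 0.12 (SE 0.24) and 0.16 (SE 0.27) at Pd21. None of these 5 genes passed the test on any day with all libraries, and Rplp0 and Rpl5 were among the 18 members whose groups did not overlap at Pd3. Without F1-HHcy replicate 3 at Pd3, Rplp0 was called higher (0.68, SE 0.18, adjusted p = 0.0357 from limma), Rpl5 was at 0.36 (SE 0.15, adjusted p = 0.122), and Rpl11, Rplp1 and Rplp2 were at 0.26, 0.19 and -0.09.

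A model of all 18 libraries asked whether the diet acted differently on the members from day to day. No member passed in any of the 3 contrasts by limma or by limma-voom. The median difference was -0.34 for Pd7 minus Pd3, -0.05 for Pd21 minus Pd3 and 0.24 for Pd21 minus Pd7. At an unadjusted p under 0.05 there were 0 members for the first (6.48% of all genes higher and 7.33% lower), Rpl10l alone for the second (5.62% and 10.4%) and Rpl10l and Rpl39l for the third (8.15% and 11.2%), all with the diet effect higher at Pd21. Over all genes 0.103% and 0.308% were called higher and lower in the first contrast, 0.815% and 3.78% in the second, and 0.986% and 2.9% in the third.

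In F1-Control pups most members leaned to higher values at Pd7 than at Pd3. Only 3 of the 81 passed the test, a smaller share than that of all genes called higher. The median log2 fold change was 0.47, against -0.05 over all genes, and 78 of the 81 were positive. The groups did not overlap for 42 members that were higher at Pd7, 51.9% of the 81, while 16.6% of all genes were higher and 21.6% lower without overlap. Only Rpl10l was lower without overlap. After adjustment over 14607 genes 3 members were called higher and 0 lower, where 5.27% and 6.08% of all genes were, and at an unadjusted p under 0.05 28 were higher and 1 lower (12.0% and 16.6% of all genes). The 3 called were Rps4x, Rps3 and Rplp0. F1-Control replicate 3 at Pd3, the lowest library for 47 members, and F1-Control replicate 2 at Pd7, the highest for 58, stand on opposite sides of this comparison. Without the first the median was 0.37 and 6 members were higher at an unadjusted p under 0.05, beside 10.8% of all genes. Without the second these were 0.27 and 3, beside 10.7%. The shares of members at that level were then below those of all genes. In either case 42 members were higher without overlap, beside 22.0% and 23.8% of all genes. The markers of theca and stroma summed to 386 to 482 FPKM at Pd3 and 957 to 997 at Pd7, those of oocytes to 504 to 597 and 658 to 1113, of granulosa cells to 204 to 217 and 232 to 465, of endothelium to 23.4 to 31.2 and 38.7 to 51.9, and of erythroid cells to 1592 to 5288 and 293 to 2521. Single markers did not all follow these sums. In F1-Control the log2 fold changes from Pd3 to Pd7 were 2.20 for Gdf9 and 1.55 for Zp3. They were -1.40 for Dazl, -1.24 for Sycp3, -0.40 for Ddx4 and -0.33 for Figla. Of the granulosa markers, Amh (3.50), Inha (1.76) and Cyp19a1 (1.01) were positive and Amhr2 (-0.39), Fst (-0.36) and Foxl2 (-0.11) negative. Of theca and stroma, Star alone was negative (-0.10). The part of these cell types in the age values was not tested.

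Rps4x was 1006, 899 and 776 FPKM at Pd3 and 1316, 1971 and 1417 at Pd7 (0.80, SE 0.22, adjusted p = 0.0322 from limma). Rps3, a small subunit protein at the entry of messenger RNA, was 586, 535 and 456 and then 744, 1144 and 775 (0.74, SE 0.22, adjusted p = 0.0393). Rplp0 was 1211, 1030 and 998 and then 1465, 2270 and 2031 (0.81, SE 0.24, adjusted p = 0.0414). All Pd7 values of these genes exceeded all Pd3 values. The calls depended on single libraries, as 0 members were called without F1-Control replicate 1, 2 or 3 at Pd3 or F1-Control replicate 2 or 3 at Pd7, 1 without F1-HHcy replicate 2 at Pd3 or F1-HHcy replicate 1 at Pd7, 6 without F1-Control replicate 1 at Pd7 and 8 without F1-HHcy replicate 1 at Pd21.

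In F1-HHcy pups the median log2 fold change from Pd3 to Pd7 was 0.15, with 74 of 81 members positive, and 0.07 with 60 positive without F1-HHcy replicate 3 at Pd3. No member was called higher, and 1 was called lower, Rpl10l, against 2.29% and 3.18% of all genes. At an unadjusted p under 0.05 Rpl3 and Rps18 were higher (9.24% of all genes), both at their lowest in F1-HHcy replicate 3 at Pd3, and Rpl10l and Rpl39l were lower (14.0%). The groups did not overlap for Rpl9, Rps13 and Rps9, which were higher (14.3% of all genes), and for Rpl10l and Rpl39l, which were lower (16.4%). The 2 age comparisons were made on separate libraries, and their difference is the contrast of diet effects at Pd7 and Pd3, in which 0 members passed.

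From Pd7 to Pd21 the median change was -0.21 in F1-Control, with 69 of 81 members lower, and 0.04 in F1-HHcy, with 37 lower. Rps23, which sits at the decoding centre of the small subunit, was the only member whose Pd21 values lay below all earlier ones in both diets. It was 2088 to 4135 FPKM in the libraries of Pd3 and Pd7, and 1370, 1677 and 1081 (F1-Control) and 1031, 1760 and 1918 (F1-HHcy) at Pd21. Age and batch cannot be told apart here, so these values carry no test.

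Of the 3 paralogues, Rpl10l and Rpl39l had correlations of -0.10 and 0.26 with the median of the subunit genes (n = 18, after subtraction of the group means), and Rps27l had 0.88, or 0.11, 0.40 and 0.87 without F1-HHcy replicate 3 at Pd3. Rpl10l is an intronless copy of the X-linked Rpl10 on chromosome 12 (chr12:66283379-66284401, minus strand, 84.7% identity over 642 coding bases), and Rpl39l is a copy of the X-linked Rpl39 with 3 exons on chromosome 16 (chr16:10170226-10174911, plus, 85.0% over 153 bases). Both are known from male germ cells, in which they stand in for the X-linked genes. Rps27l (chr9:66946086-66949516, plus) is 75.3% identical to Rps27 over the aligned coding bases and is known as a target of p53. All 3 identities lie below the 95% taken for near-identical copies.

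At Pd7 the diet comparison called Rpl10l lower, and in F1-HHcy it also fell from Pd3 to Pd7. At Pd3 it was 31.8, 37.4 and 28.5 FPKM in F1-Control and 4.13, 11.1 and 37.3 in F1-HHcy, with the last value from the library that stood apart. At Pd7 it was 12.7, 17.9 and 7.00 in F1-Control and 2.95, 3.58 and 1.64 in F1-HHcy, and at Pd21 1.53, 1.60 and 2.30 against 3.31, 1.47 and 2.73. The Pd7 groups were apart by a wide gap and the Pd21 groups overlapped. The log2 fold change at Pd7 was -1.81 (SE 0.31, adjusted p = 0.00743 from limma, lower in 3 of 3 F1-HHcy libraries), and the call held in each of the 6 fits that left out 1 library, with an adjusted p of 0.0403 at most. It was lost when genes of any level were tested (adjusted p = 0.0772). At Pd3 the fold change was -1.32 (SE 0.62, adjusted p = 0.258). From Pd3 to Pd7 it was -1.88 in F1-HHcy (SE 0.49, adjusted p = 0.0392), and was not called when any library of F1-Control at Pd3 or of F1-HHcy at Pd7 was left out, nor without replicate 2 or 3 of F1-HHcy at Pd3 or replicate 3 of F1-HHcy at Pd21. In F1-Control it was -1.39 (SE 0.49, adjusted p = 0.0771).

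The parent gene Rpl10 was far more abundant, with overlapping groups at Pd7. It was 1007 to 1181 FPKM in F1-Control and 1318 to 1656 in F1-HHcy at Pd3, and 1399 to 2117 and 1424 to 1942 at Pd7, where its log2 fold change was 0.04 (SE 0.27). Rpl10l made 0.249% to 3.27% of the pair's FPKM at Pd3, 0.115% to 0.902% at Pd7 and 0.0860% to 0.266% at Pd21. Fragments on Rpl10l numbered from 58 to 1370 per library, so its values are less exact than those of the subunit genes.

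The values of Rpl39l also lay lower in F1-HHcy at Pd7. From Pd3 to Pd7 in F1-Control it had a log2 fold change of -0.37 (SE 0.32), where Rpl10l had -1.39. Rpl39l was 33.8, 37.8 and 26.6 FPKM in F1-Control and 13.6, 24.1 and 32.9 in F1-HHcy at Pd3, and 27.0, 41.6 and 13.6 against 12.3, 10.6 and 10.8 at Pd7. At Pd21 all 6 libraries lay between 8.39 and 15.3. The log2 fold change at Pd7 was -1.09 (SE 0.31) and just missed the threshold (adjusted p = 0.0521 from limma), and it passed without F1-Control replicate 3 (-1.50, adjusted p = 0.00166). Rps27l at Pd7 was 39.5, 53.8 and 31.9 in F1-Control and 29.5, 27.9 and 24.3 in F1-HHcy (-0.57, SE 0.19, adjusted p = 0.0775), and it passed without the same library (-0.74, adjusted p = 0.0290). At Pd21 it was 31.4 to 51.3, within the range of the earlier days.

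Rpl10l and Rpl39l varied with genes of the early oocyte. Sycp3, a protein of the synaptonemal complex of meiotic chromosomes, was 204, 245 and 138 FPKM in F1-Control and 32.5, 84.4 and 178 in F1-HHcy at Pd3, 103, 112 and 44.9 against 13.2, 12.0 and 14.2 at Pd7, and 5.64 to 12.5 at Pd21. Over the 18 libraries the log2 levels of Rpl10l had a correlation of 0.98 with Sycp3, 0.95 with Figla, 0.93 with the germ cell helicase Ddx4 and 0.78 with Dazl, and of -0.43 with Zp3 and -0.89 with Gdf9, a growth factor of growing oocytes. For Rpl39l they were 0.91 with Sycp3 and -0.74 with Gdf9, and Rps27l had -0.14 with Sycp3. The 18 points share groups and age, so these values describe the libraries and carry no test. The genes most like Rpl10l among all at the level rule were Rbm44, 8030474K03Rik, Ofd1, Sohlh2 and Map7d2, with correlations of 0.98 to 0.99 (n = 18).

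The oocyte markers did not all move one way. At Pd7, summed over Ddx4, Dazl, Gdf9, Zp3, Figla and Sycp3 they were 394 to 701 FPKM in F1-HHcy and 658 to 1113 in F1-Control. At Pd3 the sums were 662 to 807 and 504 to 597, and none of the 6 was near 0 in any group. Gdf9 at Pd3 was 33.5, 35.0 and 52.3 in F1-Control and 215, 168 and 83.9 in F1-HHcy, opposite to Sycp3. The part of oocyte number or stage in the values of Rpl10l and Rpl39l was not tested.

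**Figure D5:**
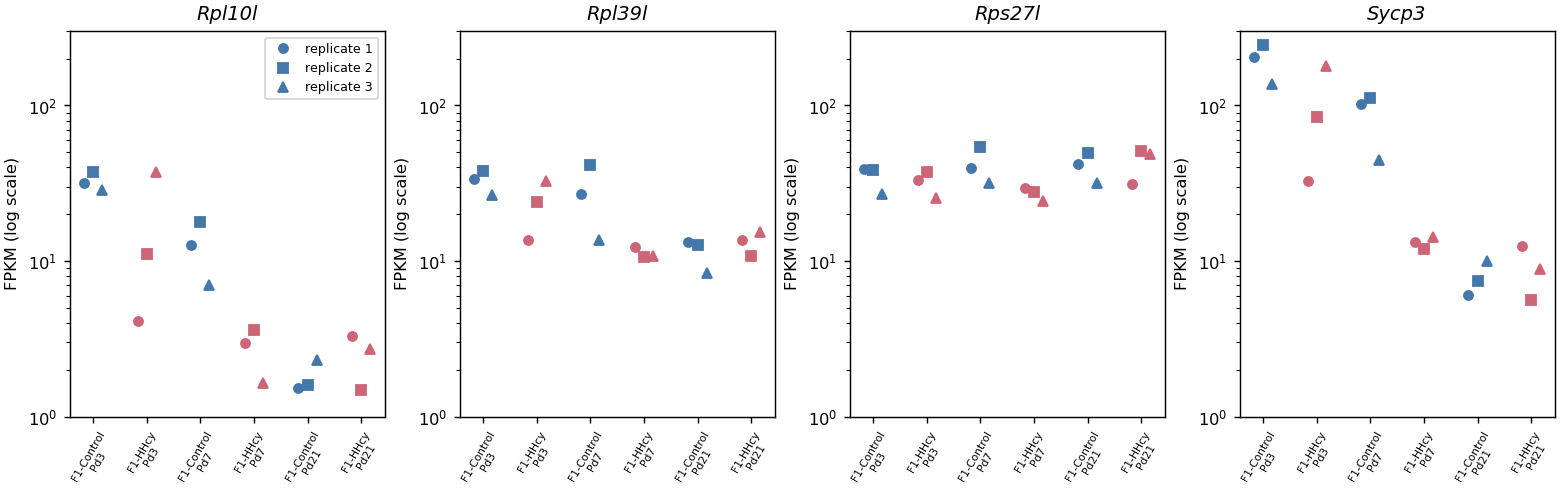
FPKM (log scale) of Rpl10l, Rpl39l, Rps27l and the oocyte gene Sycp3 in each library, by group (blue F1-Control, red F1-HHcy, symbols are replicates). At Pd7 the F1-HHcy values of Rpl10l, 1.64 to 3.58, lie below the F1-Control values, 7.00 to 17.9, those of Sycp3 lie below theirs as well, and Rps27l stays between 24.3 and 53.8 at all ages.

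The 2 annotated pseudogenes carried little information of their own. Rpl6l (chr10:111125851-111126721, plus) is 98.7% identical to Rpl6 and followed the subunit genes at 76.3 to 180 FPKM. Rpl32l (chr10:20208490-20208888, plus) is 97.2% identical to Rpl32 and had 15 to 111 fragments per library. Rps27 shares its whole coding sequence with Rps27rt, and Rpl37 differs from Rpl37rt at 1 base, so the levels within these pairs are uncertain too.

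Genes around the ribosome were taken as lists from general knowledge, and counts are of calls with an adjusted p under 0.05 from limma. Of 77 mitochondrial ribosomal protein genes, which build the separate ribosome of mitochondria, 0 were higher and 5 lower in F1-HHcy at Pd7, namely Mrpl23, Mrpl54, Mrpl55, Mrps28 and Mrps36, with log2 fold changes of -0.86 to -0.61. Their median at Pd7 was -0.36 with 2 of 77 positive, and 0 were called at Pd3 or Pd21. The median log2 deviations of this list at Pd7 were -0.01, 0.42 and 0.04 in F1-Control and -0.17, -0.23 and -0.19 in F1-HHcy. Those of the other genes under 1000 bases were 0.10, 0.62 and 0.01 and -0.18, -0.11 and -0.27, so the lean was not particular to this list. Mrpl54 was 68.4, 117 and 67.5 FPKM in F1-Control and 49.7, 40.5 and 43.9 in F1-HHcy at Pd7 (-0.86, SE 0.21, adjusted p = 0.0331). The 6.49% of this list called lower stood beside 5.98% of all genes.

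Of 36 translation factors, Eif3g, a subunit of initiation factor eIF3 (-0.69, SE 0.18, adjusted p = 0.0368 from limma), and Eif6, which keeps free large subunits from joining (-0.63, SE 0.16, adjusted p = 0.0343), were lower at Pd7, which is 5.56% of the list beside 5.98% of all genes, and 0 were called at Pd3 or Pd21. Of 39 ribosome assembly factors only Ltv1, needed for the export and maturation of the small subunit, was called, lower at Pd7 (-0.50, SE 0.13, adjusted p = 0.0394). This is 2.56% of that list. Ltv1 was 28.2, 32.1 and 27.6 FPKM in F1-Control and 20.9, 18.9 and 21.2 in F1-HHcy, without overlap. Of 13 genes of the mTORC1 branch that acts on the ribosome, 7 other ribosomal protein genes and 7 noncoding hosts of small nucleolar RNAs, 0 were called for diet on any day.

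Of 10 genes of the p53 pathway, which responds when ribosome assembly fails, the nuclease gene Aen was called lower on both early days, at Pd3 (-1.11, SE 0.18, adjusted p = 0.0287 from limma) and at Pd7 (-1.18, SE 0.19, adjusted p = 0.00678). Aen was 24.1, 24.1 and 24.3 FPKM in F1-Control and 9.13, 14.6 and 9.11 in F1-HHcy at Pd3. The Pd7 values were 17.5, 12.2 and 11.7 against 5.12, 4.63 and 6.72, again without overlap. The cell cycle inhibitor Cdkn1a was lower at Pd7 (-0.88, SE 0.22, adjusted p = 0.0343). That made 1 of 10 lower at Pd3 and 2 of 10 at Pd7, beside 1.43% and 5.98% of all genes. At Pd21 no gene of this list was called, and the diet effect on Aen was higher there than at Pd7 by 1.10 log2 units (SE 0.25, adjusted p = 0.0176).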

How the data were processed

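Ovarian poly-A RNA of 18 libraries was sequenced by the authors. The submitters' processing notes name FastQC 0.11.9, Trimmomatic 0.39, STAR 2.7.9a, Subread with featureCounts 2.0.1 and DESeq2 1.36.0, with GRCm38/mm10. The authors deposited 1 value per symbol and library without naming the unit, and these deposited values were treated as FPKM. Multiplied by 1 length for each gene and 1 factor for each library, they gave whole fragment numbers (within 0.02) for 100% of 27294 genes, those detected in 3 or more libraries. Depth was 33630547 to 39399215 fragments. How strand and fragments that match several loci were counted is not given in the sources used here, which matters for members with near-identical copies.

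Groups came from the labels. Diets were compared per day on the 6 libraries with limma 3.58.1 (R 4.3.3, variance trend) on log2(FPKM + 1), which understates changes of low genes, with genes that reached 1 FPKM in 3 or more of these libraries. Age and the difference of diet effects used 1 model of all 18. Adjusted p-values are Benjamini-Hochberg values over all genes tested. The test was tried on simulated data. Copies were found with blastn 2.17.0 against GENCODE transcripts, and promoter sequences are from RefSeq. Tables and figures used Python 3.11.15, pandas 2.3.3 and matplotlib 3.10.9.

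Some items are not reported here by name. The members, lists, tests and alternatives were chosen with earlier results of these data known. Genes named are Rps6, the 5 members with the smallest p in each direction of a comparison, and the 5 highest and lowest in level. The paralogue pairs, the stalk genes, Rpsa, Rpl5 and Rpl11, and those of largest and smallest spread are named too. From each other list the 3 genes with the smallest p on any day were taken. The members low in 1 library were picked after their values were seen. Alternatives were another pseudocount (0.1), no filter, median-ratio scaling, scaling without mitochondrially encoded and hemoglobin RNAs, the replicate number as a block, limma-voom on recovered fragments, calls by unadjusted p (0.05) and size (log2 fold change of 0.58), 1 model of all libraries, each library left out, and, added after seeing the data, leaving out the 6 members low in 1 library.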

Additional observations from a re-analysis of the deposited data

How the results depend on the processing

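The medians of the members' diet effects ranged over the fits that left out 1 library from 0.10 to 0.30 at Pd3, from -0.22 to 0.11 at Pd7, where the sign changed, and from -0.00 to 0.34 at Pd21. No single result changed the sign of a called value. Of the alternatives computed for named genes, 2483 left the side of the threshold as it was, 28 brought a gene past it, 51 took one out and 12 moved a value with no call. Of those for medians, counts and shares, 334 left the result as it was and 51 moved it. The count of members lower at Pd7, reported as 1, was 0 without a filter on low values, 2 with all 18 libraries in 1 model, 2 by a criterion of unadjusted p (0.05) and size (log2 fold change of 0.58), and 1 to 3 when a library was left out, with 3 without F1-Control replicate 3 at Pd7. The count higher at Pd7 than at Pd3 in F1-Control, reported as 3, was 0 without a filter, 1 with median-ratio scaling (Rps4x) and 12 by that criterion, and 0 to 8 when a library was left out, while the count lower, reported as 0, was 1 by that criterion (Rpl10l) and 0 to 1. In F1-HHcy the count higher was 2 by that criterion and 0 to 2 when a library was left out, and the count lower, reported as 1, was 0 without a filter, with the block or with limma-voom, 2 by that criterion and 0 to 2. At Pd3 the members higher numbered 0 to 6 and those lower 0 to 2 when a library was left out, the upper ends without F1-HHcy replicate 3. The diet effect was higher at Pd21 than at Pd3 for 1 member and than at Pd7 for 2 by that criterion, and for 0 to 1 in both cases when a library was left out. The cause of these changes was not tested. As a share of recovered fragments the members made 5.37%, 7.42% and 11.5% of a library (lowest, median and highest), and without the 10 highest members 12.1%, 15.5% and 19.6% of the summed FPKM.

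No pairing by replicate number was seen, as the correlations of the deviations of libraries with the same number ran from -0.31 to 0.09. With so few libraries this cannot show that there was none. With the replicate number as a block the members lower at Pd7 were 3, Rpl10l, Rpl39l and Rps27l, and the fall of Rpl10l from Pd3 to Pd7 in F1-HHcy was not called.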
